A study of Mus musculus with 19 samples.

Results

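Txnip, the alpha-arrestins Arrdc1, Arrdc2, Arrdc3 and Arrdc4, and Mlxip were followed through a growth factor time course in NIH3T3 cells, an immortalised mouse fibroblast line. The 6 genes were taken by name, as every probe set that the array annotation gives their symbols, and made up 10 of 45101 probe sets and 6 of the 14996 genes tested. The group was chosen by a measured value, the Txnip signal with FGF and the inhibitor U0126, which lay far below the quiescent level. That difference is given here as a description, with no test, and the other 5 genes came in by name. All cells had been starved for 48 h in 0.1% serum. The quiescent group (3 arrays) received nothing further, and every other group received basic FGF at 50 ng/ml. FGF alone was sampled at 1 h (1 array) and at 4, 7 and 12 h (2 arrays each), and the same times were sampled with U0126 at 20 uM added 30 min before FGF (1, 2, 2 and 2 arrays). In another 2 groups of 1 array each, U0126 was added 1 h after FGF and RNA taken at 7 h, or added 7 h after FGF and RNA taken at 12 h. U0126 blocks the MEK kinases, which activate ERK. The cells are a single established line, and no group received U0126 without FGF.

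Txnip encodes thioredoxin-interacting protein, an alpha-arrestin that binds thioredoxin and restrains glucose uptake by promoting the internalisation of glucose transporters. The Arrdc proteins are its relatives. They bind NEDD4-class ubiquitin ligases and act as adaptors in the ubiquitination and trafficking of membrane proteins. Mlxip encodes MondoA, a transcription factor that pairs with Mlx, responds to glucose phosphates and drives Txnip and Arrdc4 through paired E-box-like sites known as carbohydrate response elements.

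The upstream sequences of Txnip and Arrdc4 are shown because both genes are textbook MondoA targets and their signals ran most alike within the group. Each line gives the 250 bases before the annotated start in RefSeq (GRCm38.p6), 5′ to 3′ on the gene's strand, at chr3:96557707-96557956 on the plus strand for Txnip and chr7:68749239-68749488 on the minus strand for Arrdc4. Capitals mark matches to 5 motifs: CACGTG, a pair of CACGNG copies 5 bases apart, CCAAT and GTAAACA on either strand, and TATAA on the gene's strand.
Txnip: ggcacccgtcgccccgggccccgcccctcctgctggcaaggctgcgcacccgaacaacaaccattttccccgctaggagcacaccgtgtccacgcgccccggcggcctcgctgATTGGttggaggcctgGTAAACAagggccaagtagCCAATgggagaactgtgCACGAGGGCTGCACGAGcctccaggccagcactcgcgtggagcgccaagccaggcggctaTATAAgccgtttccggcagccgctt
Arrdc4: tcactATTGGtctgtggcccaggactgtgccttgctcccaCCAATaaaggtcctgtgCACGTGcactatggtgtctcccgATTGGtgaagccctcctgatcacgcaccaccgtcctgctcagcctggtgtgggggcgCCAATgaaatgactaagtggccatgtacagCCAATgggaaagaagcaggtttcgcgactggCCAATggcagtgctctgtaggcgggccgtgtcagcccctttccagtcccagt
The Txnip stretch held 1 pair of CACGNG copies, beginning 85 bases before the start, 1 GTAAACA (the core letters bound by FOXO factors) at 121 bases, 2 CCAAT boxes at 137 and 102 bases and a TATAA at 25 bases. The Arrdc4 stretch held 1 CACGTG, itself a form of CACGNG, at 193 bases, and 6 CCAAT boxes. Among 32841 promoter entries of the same length, 0.0457% held the CACGNG pair, 6.02% CACGTG, 33.9% CCAAT, 3.17% GTAAACA and 16.0% TATAA. Neither the CACGNG pair nor CACGTG was found in the same window of Arrdc1, Arrdc2, Mlxip or the 3 entries of Arrdc3. A match is a description of letters and not evidence of binding.

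Signals were the authors' MAS5 intensities, with a trimmed mean of 500.0 on every array. All 10 probe sets of the 6 genes passed the filter on low signal. Experiment numbers 1 and 2 in the labels pair arrays of different groups. The labels name the experiments but no separate cultures, so p-values measure the spread between these arrays, which may be partly technical. U0126 acted on known ERK targets, 10 of 13 of which fell with it on average over 4, 7 and 12 h. This count is at an adjusted p under 0.05 in limma, which 22.0% of all genes passed in either direction. Dusp6, an ERK phosphatase, was among the 10 (-2.42 ± 0.09 log2, adjusted p = 3.97e-10). All 10 fibroblast markers lay above the median signal on every array. Of the markers of epithelial, endothelial, macrophage, muscle and fat cells, Epcam, Csf1r and Lyz2 also did, and no such list summed to more than 769 on any array, against at least 137100 for the fibroblast list.

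Txnip signal fell 4.4-fold to 6.17-fold by 4 to 12 h of FGF, and was lower still, 1.8-fold on average, with U0126. Of the other 5 genes, Arrdc3 alone was called in the fit that ignores the experiment number, with U0126 at 4 h or from 1 h. With the experiment number as a block, Arrdc2, Arrdc4 and Mlxip were also called in some comparisons. A gene was called at an adjusted p under 0.05 in limma, Benjamini-Hochberg adjusted over all 14996 genes. Values are log2 differences ± SE. Against quiescent cells, no member was called at 1 h of FGF (0.480% of all genes passed). Of the 6, Txnip was called lower at 4 h (8.90%), 7 h (12.6%) and 12 h (20.3%). For U0126 against FGF alone, Arrdc3 was called lower at 4 h (5.93%). No member was called at 1 h (0.180%), 7 h (6.07%) or 12 h (12.0%), which does not show that none changed. Averaged over 4, 7 and 12 h, U0126 lowered 1 of 6, again Txnip (22.0%). These Txnip calls, for FGF against quiescent cells and for the U0126 average, reuse quiescent or U0126 arrays of the comparison that singled out Txnip. They are not independent of that choice. No member was called between 12 h and 4 h of FGF (6.55%) or between the same times with U0126 (0.887%), nor in the test of whether the U0126 effect varied with time (1.03%). U0126 from 1 h lowered Arrdc3 against FGF alone at 7 h (3.59%), and no member was called for U0126 from 7 h against FGF alone at 12 h (5.05%). Against U0126 given before FGF, no member was called for either late addition (0% of all genes at 7 h, where limma gave 437 genes at an unadjusted p under 0.05, and 0.674% at 12 h). The members' median difference from quiescent cells was -0.15 at 4 h, -0.31 at 7 h and -0.55 at 12 h of FGF, beside -0.09, -0.05 and -0.01 over all genes. These medians include Txnip, for which the group was chosen, and use the quiescent arrays of that choice, so they describe no decline of the family. At 4 h Arrdc1 (0.12), Arrdc3 (0.26) and Mlxip (0.65) lay above 0, and Arrdc2 (-0.72) and Arrdc4 (-0.43) below.

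With the experiment number as a block, which compares arrays within an experiment, more members were called, and so were more genes in all. FGF then lowered 1 of 6 at 1 h (1.57% of all genes), lowered 1 and raised 1 at 4 h (17.7%), lowered 2 and raised 1 at 7 h (21.6%) and lowered 2 at 12 h (30.0%). U0126 lowered 3 of 6 at 4 h (13.0%), 2 at 12 h (20.6%) and 3 on average (30.6%), and none was called at 1 h (1.05%) or 7 h (12.5%). Txnip was among the members lowered at each of these times of FGF, and with U0126 at 4 h, at 12 h and on average. It was chosen through the same quiescent and U0126 arrays, so these counts describe no response of the family. Between 12 h and 4 h 2 members fell with FGF alone (14.1%) and none was called with U0126 (4.92%). U0126 from 1 h lowered 2 (7.49%), U0126 from 7 h lowered 1 (11.3%), and the U0126 effect of 1 member varied with time (3.83%). For neither late addition was a member called against U0126 given before FGF (0.0267% at 7 h and 2.25% at 12 h).

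**Figure D1:**
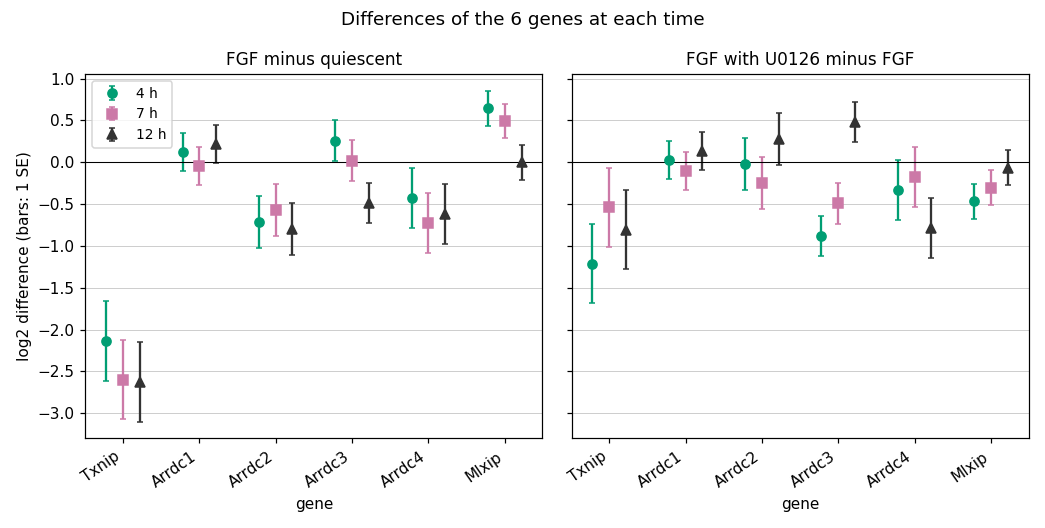
Log2 differences (y axis, bars 1 SE) of the 6 genes (x axis) for FGF minus quiescent at left and FGF with U0126 minus FGF alone at right, at 4, 7 and 12 h. Txnip lies between -2.14 and -2.63 at left while the other 5 genes lie within 0.80 of 0, and at right the Arrdc3 value moves from -0.88 at 4 h to 0.48 at 12 h.

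Txnip, read by probe set 1415996_at, gave signals of 6941, 6131 and 3612 on the 3 quiescent arrays. After FGF alone the signal was 1735 at 1 h. It was 1448 and 824 at 4 h, 984 and 636 at 7 h, and 1029.9 and 583 at 12 h, with experiment 1 given before experiment 2. Every FGF array therefore lay below every quiescent array, and experiment 2 lay below experiment 1 at 4, 7 and 12 h. The difference from quiescent cells was -2.14 ± 0.48 at 4 h (4.4-fold, adjusted p = 0.0109), -2.60 ± 0.48 at 7 h (6.05-fold, adjusted p = 0.00229) and -2.63 ± 0.48 at 12 h (6.17-fold, adjusted p = 0.00115). At 1 h, with 1 array, it was -1.48 ± 0.58 (adjusted p = 0.45), or -1.90 ± 0.25 with the block (adjusted p = 0.000249). The 4 h call was lost without the FGF array of experiment 2 at that time (-1.74, adjusted p = 0.122). These tests share the quiescent arrays with the comparison that singled out Txnip and are not independent of it. In bulk RNA such as this, fewer cells carrying a transcript and less of it per cell cannot be told apart. The step from 4 h to 12 h of FGF, which shares no array with that comparison, was -0.49 ± 0.48 (adjusted p = 0.653), with an interval of -1.50 to 0.53.

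With U0126 added before FGF, Txnip signal was 2573 at 1 h. It was 832 and 257 at 4 h, 613 and 477 at 7 h, and 606 and 316 at 12 h. Within each experiment the U0126 array lay below its FGF partner in all 6 pairs at 4, 7 and 12 h, whereas at 1 h the U0126 array lay above it. Across experiments the 2 treatments overlapped at 4 h and 12 h and not at 7 h. The average U0126 effect was -0.85 ± 0.27 (1.8-fold, adjusted p = 0.0371), and -0.85 ± 0.12 with the block (adjusted p = 1.34e-05). By time it was -1.21 ± 0.48 at 4 h (adjusted p = 0.178, with the block 0.000396), -0.54 ± 0.48 at 7 h (adjusted p = 0.649, with the block 0.0926) and -0.80 ± 0.48 at 12 h (adjusted p = 0.351, with the block 0.00699). At 1 h it was 0.56 ± 0.67 (adjusted p = 0.999), from 1 array of each. No variation of the effect over 4, 7 and 12 h was detected (adjusted p = 0.986). These U0126 tests share the U0126 arrays with the comparison that singled out Txnip. The average call was kept in 5 of 12 fits that each left out 1 array. It was lost without the FGF array of experiment 1 at 4, 7 or 12 h, the U0126 array of experiment 2 at 4 or 12 h, or either U0126 array at 7 h, with values from -0.58 to -0.91 and adjusted p up to 0.117.

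Set against quiescence, as the description by which the group was picked, Txnip with U0126 differed by -0.91 at 1 h (-1.34 with the block), -3.35 at 4 h (10.2-fold), -3.14 at 7 h (8.79-fold) and -3.43 at 12 h (10.8-fold). As shares of the quiescent mean of 5074 ± 2067 (SD, n = 2 experiments), the group means were 10.7% at 4 h, 10.7% at 7 h and 9.08% at 12 h with U0126. With FGF alone they were 22.4%, 16% and 15.9% at the same times. The 1 h arrays came from experiment 1 only, and against the quiescent mean of that experiment (6536) they stood at 39.4% with U0126 and 26.6% with FGF alone. The 11 groups ran from quiescent, through both 1 h groups, to FGF alone at 4 h (1136 ± 441), 7 h (810 ± 246) and 12 h (806 ± 316), and then the groups with U0126 from 4 h onward. Within those last 5 groups, neighbours in the order differed by less than the SD of either replicated neighbour. The late-addition arrays also came from experiment 1 only, and within it the order of these groups differed. Against its quiescent mean, U0126 before FGF stood at 12.7% at 4 h, 9.4% at 7 h and 9.3% at 12 h. U0126 from 7 h stood at 9.1% and U0126 from 1 h at 7.8%.

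Adding U0126 after FGF also went with low Txnip. The array with U0126 from 1 h read 508 at 7 h, and the array with U0126 from 7 h read 598 at 12 h, each from experiment 1. Both lay below the FGF arrays of experiment 1 at the same times (984 and 1029.9). The first differed from FGF alone by -0.63 ± 0.58 (adjusted p = 0.701), or -1.05 ± 0.25 with the block (adjusted p = 0.0122). The later addition differed by -0.37 ± 0.58 (adjusted p = 0.825), or -0.80 ± 0.25 with the block (adjusted p = 0.0477). Each rests on a single array, which the fit assumes to vary like the replicated groups, and the later value turned to 0.036 without the FGF array of experiment 1 at 12 h. Neither of these late-addition arrays entered the comparison that singled out Txnip.

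The other Txnip probe set, 1415997_at, followed the same course. It read 2859, 3402 and 1849 in quiescent cells, then 728 at 1 h, 731 and 479 at 4 h, 390 and 554 at 7 h, and 502 and 295 at 12 h of FGF. With U0126 it read 1369 at 1 h, 349 and 230 at 4 h, 235 and 177 at 7 h, and 329 and 196 at 12 h. Across the 18 columns of the fit the 2 probe sets correlated with r = 0.95. In the fit over all probe sets, the FGF difference at 12 h was -2.60 ± 0.34 (adjusted p = 0.000137) and the average U0126 effect -0.91 ± 0.20 (adjusted p = 0.00435) for this probe set.

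**Figure D2:**
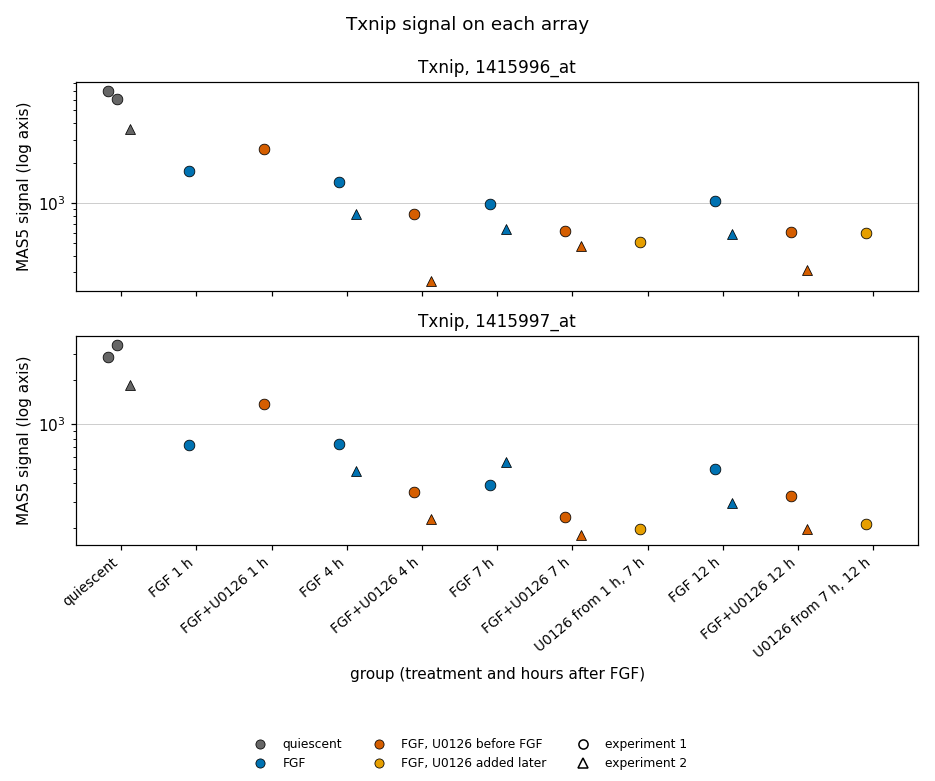
Txnip signal on each array (y axis, log scale) by group (x axis) for both probe sets, circles for experiment 1 and triangles for experiment 2. All FGF arrays lie below the 3 quiescent arrays, and at 4, 7 and 12 h each U0126 array lies below the FGF array of the same experiment.

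Arrdc4, the close Txnip relative that is also a MondoA target, had its lowest group mean with U0126 at 12 h, and on its brighter probe set was called only with the experiment block. Probe set 1424759_at read 271, 331 and 195 in quiescent cells and 264 at 1 h of FGF. With FGF it read 229.8 and 135 at 4 h, 164 and 119.7 at 7 h, and 199 and 117 at 12 h. With U0126 it read 198 at 1 h, 153 and 124 at 4 h, 151 and 99 at 7 h, and 104 and 66 at 12 h. The late-addition arrays, both from experiment 1, read 116.6 with U0126 from 1 h and 91.9 with U0126 from 7 h. The latter lay below the 104 of the same experiment. In all 6 pairs at 4, 7 and 12 h the U0126 array lay below its FGF partner, but FGF and U0126 arrays of different experiments overlapped at each time except 12 h. The FGF difference was -0.43 ± 0.36 at 4 h (adjusted p = 0.577), -0.73 ± 0.36 at 7 h (adjusted p = 0.234, with the block 0.0357) and -0.62 ± 0.36 at 12 h (adjusted p = 0.277). The U0126 effect was -0.79 ± 0.36 at 12 h (adjusted p = 0.2, with the block 0.0253) and -0.43 ± 0.21 on average (adjusted p = 0.171, with the block 0.0233). No other setting tried made these differences pass on this probe set.

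The other Arrdc4 probe set, 1426818_at, read 154, 125.5 and 161 in quiescent cells. With U0126 it read 16 and 39 at 4 h, 45 and 10.1 at 7 h, and 28 and 19 at 12 h, and 5 of these 6 values lay under the low-signal level of their own array, so their order means little. For this probe set the average U0126 effect was -0.90 ± 0.30 (adjusted p = 0.0476, in the fit over all probe sets) and the FGF difference at 12 h -1.30 ± 0.51 (adjusted p = 0.106). Since most U0126 values of this probe set were not above the low-signal level, the size of these differences is uncertain, and only the direction is set beside that of the brighter probe set, which was the same. Over the 11 group means, Arrdc4 correlated with Txnip at r = 0.85, rank 150 of 12423 genes. Arrdc2 had r = 0.69, Arrdc3 0.45, Arrdc1 0.10 and Mlxip -0.23. These are descriptions over groups that share arrays.

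Arrdc2, another alpha-arrestin, read 278, 297 and 190 in quiescent cells and 152 after 1 h of FGF. With FGF it read 143 and 131 at 4 h, 209 and 111 at 7 h, and 148 and 112 at 12 h. With U0126 it read 286 at 1 h, 136 and 134 at 4 h, 149 and 107 at 7 h, and 158 and 159.8 at 12 h. The FGF arrays at 4 h and 12 h lay below all quiescent arrays, while 1 FGF array at 7 h overlapped them. The FGF difference was -0.72 ± 0.31 at 4 h (adjusted p = 0.193), -0.57 ± 0.31 at 7 h (adjusted p = 0.291) and -0.80 ± 0.31 at 12 h (adjusted p = 0.0892, with the block 0.0259, and 0.0305 with the 3 quiescent arrays kept separate). The single U0126 array at 1 h read within the quiescent range.

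**Figure D3:**
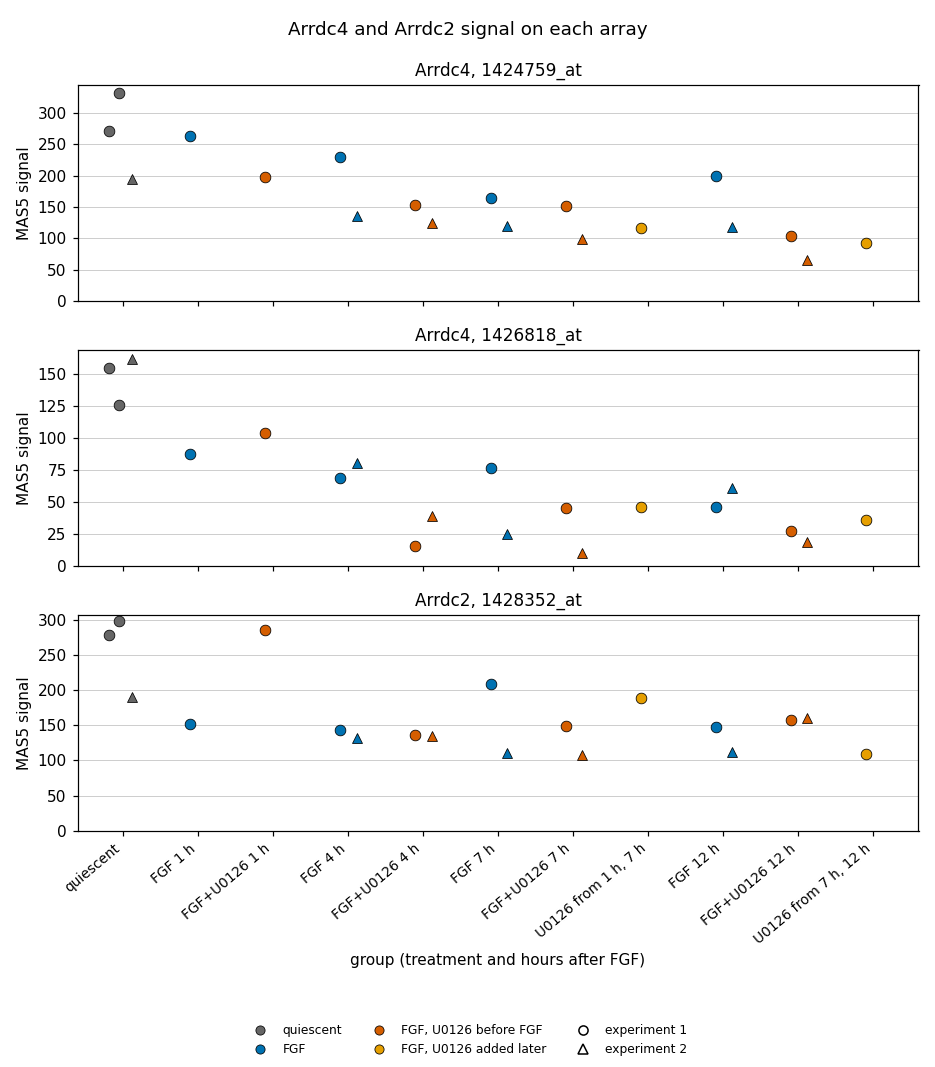
Signal on each array (y axis, linear) by group (x axis) for both Arrdc4 probe sets and for Arrdc2, circles for experiment 1 and triangles for experiment 2. The Arrdc4 arrays with U0126 at 12 h (104 and 66 on the upper panel) are below the FGF arrays of that time, and the Arrdc2 array with U0126 at 1 h (286) lies among the quiescent arrays.

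Arrdc3, an adaptor for the ubiquitination of membrane receptors, gave its highest signal at 1 h of FGF and was lower with U0126 at 4 h. It read 1319, 956 and 903 in quiescent cells. With FGF it read 1919.8 at 1 h, 1237 and 1182 at 4 h, 998 and 1043 at 7 h, and 743 and 689 at 12 h. With U0126 it read 812 at 1 h, 642 and 659 at 4 h, 552 and 945 at 7 h, and 776 and 1296 at 12 h. U0126 arrays thus lay below both FGF arrays at 4 h and 7 h, and above both at 12 h.

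U0126 lowered Arrdc3 at 4 h by -0.88 ± 0.24 (1.84-fold, adjusted p = 0.0468, with the block 0.00783). That call was close to the threshold and was lost in each of 4 fits that left out 1 array (-0.85 to -0.91, adjusted p from 0.146 to 0.188). At 1 h the U0126 effect was -1.23 ± 0.34 (adjusted p = 0.256), at 7 h -0.49 ± 0.24 (adjusted p = 0.335) and at 12 h 0.48 ± 0.24 (adjusted p = 0.259). The test of whether the effect varied over 4, 7 and 12 h gave an adjusted p of 0.17, and 0.025 with the block. The effect at 12 h minus that at 4 h was 1.36 ± 0.34. The average effect was -0.30 ± 0.14 (adjusted p = 0.163), and passed without the U0126 array of experiment 2 at 7 h (-0.42, adjusted p = 0.0336) or at 12 h (-0.42, adjusted p = 0.0396).

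The array with U0126 from 1 h gave the lowest Arrdc3 signal of all, 421 at 7 h, -1.25 ± 0.30 from FGF alone (2.38-fold, adjusted p = 0.0297). It was 1 array, and the call was lost when either FGF array at 7 h was left out (-1.28 without experiment 1, adjusted p = 0.0644, and -1.22 without experiment 2, adjusted p = 0.12). With U0126 from 7 h the signal at 12 h was 856, 0.25 ± 0.30 from FGF alone (adjusted p = 0.753). Against quiescent cells, FGF gave 0.92 ± 0.30 at 1 h (adjusted p = 0.331), 0.26 ± 0.24 at 4 h (adjusted p = 0.629) and -0.49 ± 0.24 at 12 h (adjusted p = 0.194). Between 4 h and 12 h of FGF the signal differed by -0.75 ± 0.24 (adjusted p = 0.0916, with the block 0.0214, and 0.0231 in a fit of the compared groups only), and the arrays of the 2 times did not overlap.

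Arrdc1, known for recruiting ESCRT proteins to budding vesicles at the cell surface, gave no call in any comparison. Probe set 1424578_at read 442, 448 and 457 in quiescent cells and between 328 and 673 over all other arrays. The FGF difference at 12 h was 0.22 ± 0.23 (interval -0.27 to 0.71, adjusted p = 0.582). The average U0126 effect was 0.02 ± 0.13 (interval -0.26 to 0.30, adjusted p = 0.943). Of the other 2 probe sets, 1444508_s_at read 101 to 235. The remaining one, 1458613_at, passed the low-signal level on 4 of 19 arrays, where it read 48 to 125.6, and its average U0126 effect was -0.46 ± 0.35 (adjusted p = 0.439).

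**Figure D4:**
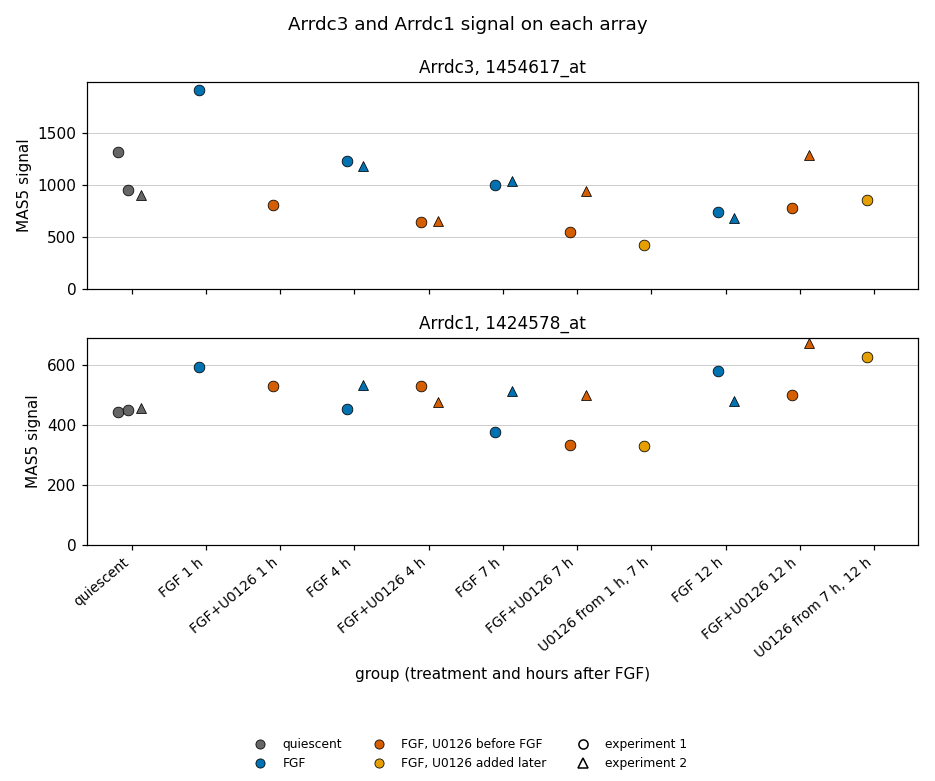
Signal on each array (y axis, linear) by group (x axis) for Arrdc3 and Arrdc1, circles for experiment 1 and triangles for experiment 2. Arrdc3 reads 1919.8 at 1 h of FGF and 743 and 689 at 12 h, and its U0126 arrays lie below the FGF arrays at 4 h and 7 h and above them at 12 h, whereas Arrdc1 stays between 328 and 673.

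Mlxip, the transcription factor of the group, gave its highest signals at 4 h of FGF. It read 766, 812 and 794 in quiescent cells. With FGF it read 733 at 1 h, 1098 and 1418 at 4 h, 962 and 1304 at 7 h, and 687 and 909.6 at 12 h. With U0126 it read 725 at 1 h, 771 and 1052 at 4 h, 878 and 932 at 7 h, and 681 and 836 at 12 h. All FGF arrays at 4 h and 7 h lay above all quiescent arrays, and those at 12 h lay on either side of them.

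The Mlxip difference from quiescent cells was 0.65 ± 0.21 at 4 h (1.57-fold, adjusted p = 0.0692, with the block 0.00258, and 0.0327 with the 3 quiescent arrays kept separate) and 0.49 ± 0.21 at 7 h (adjusted p = 0.154, with the block 0.0132). Between 4 h and 12 h of FGF it differed by -0.65 ± 0.21 (adjusted p = 0.0846, with the block 0.00297). The U0126 effect was -0.46 ± 0.21 at 4 h (adjusted p = 0.249, with the block 0.03) and -0.28 ± 0.12 on average (adjusted p = 0.122, with the block 0.0105). Scaling each array to a common 75th percentile also made the 4 h difference from quiescent cells pass (0.71, adjusted p = 0.044). At 4 h of FGF, when Mlxip was highest, Txnip was at 22.4% of its quiescent mean.

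Mlx, the partner that MondoA needs to bind DNA, rose with U0126. Probe set 1425930_a_at read 425, 602 and 471 in quiescent cells, 922 and 705 at 4 h of FGF and 1503 and 1370 at 4 h with U0126. At 12 h it read 780 and 696 with FGF and 1267 and 997 with U0126, and the arrays with late U0126 read 1558 and 1500. No U0126 array from 4 h onward overlapped an FGF array. The average U0126 effect was 0.79 ± 0.11 (adjusted p = 0.000145), and 0.69 ± 0.09 on the other Mlx probe set, 1418437_a_at. Mlxipl, which encodes the related factor ChREBP, read 2 to 45.1 and did not pass the filter.

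**Figure D5:**
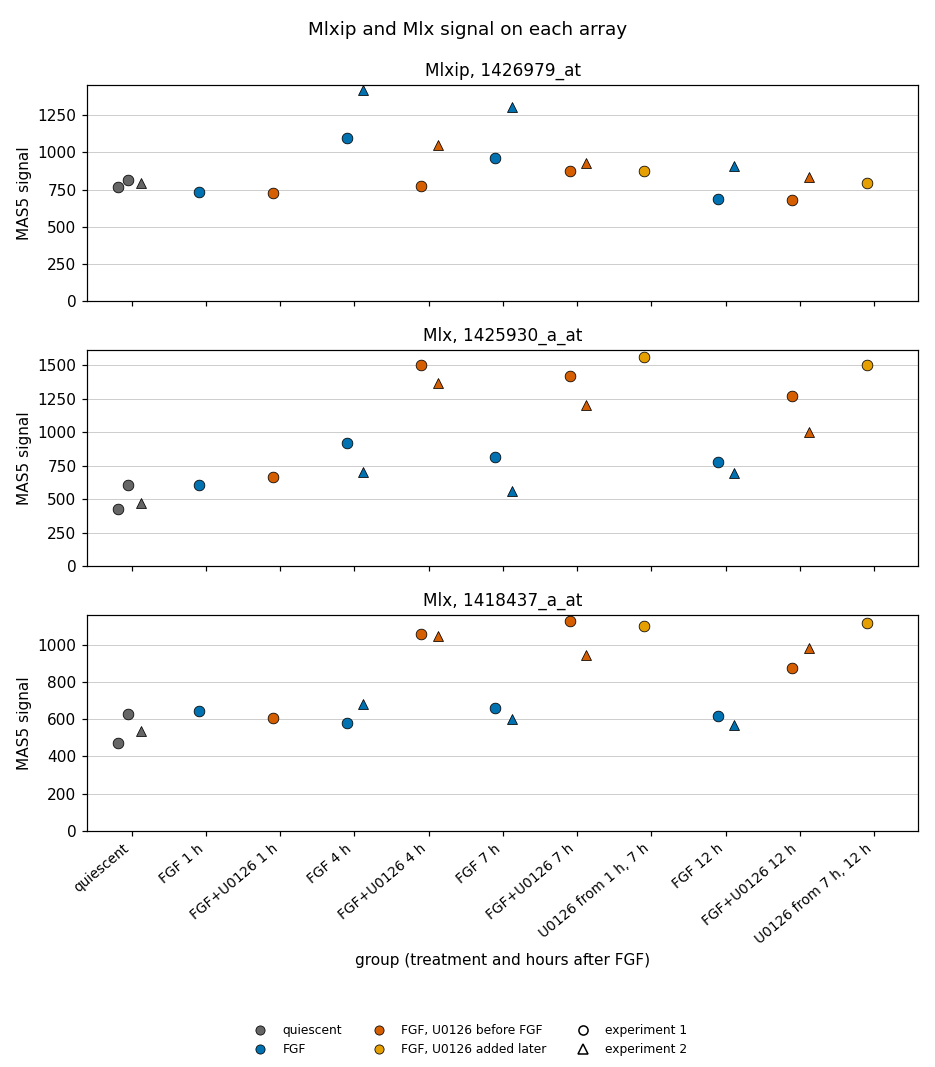
Signal on each array (y axis, linear) by group (x axis) for Mlxip and for both Mlx probe sets, circles for experiment 1 and triangles for experiment 2. Mlxip is highest at 4 h of FGF (1098 and 1418), and Mlx is higher on U0126 arrays from 4 h onward than on any FGF array of the same time.

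The lists of pathway genes around the family were read by counts and medians, against 20.3% of all genes called at 12 h of FGF (30.0% with the block) and 22.0% for the average U0126 effect (30.6% with the block). Of 11 tested partners in the MYC, MAX and MLX network, FGF at 12 h raised 1 and lowered 2, or 27.3% called (3 and 3 with the block, 54.5%), with a median of 0.01 beside -0.01 over all genes. Mxd4 and Mnt, repressors that compete with MYC for MAX, fell by 1.99 ± 0.19 (adjusted p = 6.03e-06) and 1.38 ± 0.25 (adjusted p = 0.00123), and Myc rose by 0.50 ± 0.16 (adjusted p = 0.0367). On average U0126 raised 1 of the 11 (Mlx) and lowered 1 (Myc, -0.36 ± 0.09, adjusted p = 0.0101), or 18.2% called (3 and 1 with the block, 36.4%), with a median of 0.01 beside 0.01.

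Of 15 tested glucose-response targets of Mondo factors, FGF at 12 h raised 6 and lowered 2 (53.3% called, median 0.22 beside -0.01 over all genes), and U0126 on average raised 2 and lowered 5 (46.7% called, median -0.15 beside 0.01). With FGF at 12 h the fatty acid elongase Elovl6 rose by 1.96 ± 0.16 (adjusted p = 2.19e-06), Acly, which makes cytosolic acetyl-CoA, by 0.81 ± 0.12 (adjusted p = 0.000193), fatty acid synthase Fasn by 0.81 ± 0.12 (adjusted p = 0.000295) and acetyl-CoA carboxylase Acaca by 0.82 ± 0.18 (adjusted p = 0.00482). The 2 that fell, named after their values were seen, were the repressor Klf10 (-0.80 ± 0.19, adjusted p = 0.00661) and Pdk4, a kinase that inhibits pyruvate dehydrogenase (-0.78 ± 0.26, adjusted p = 0.0491). U0126 lowered Elovl6 (-0.55 ± 0.09, adjusted p = 0.000524), Acly (-0.34 ± 0.07, adjusted p = 0.00201) and also Klf10 (-0.53 ± 0.11, adjusted p = 0.00208), which like Txnip was lower with FGF at 12 h and lower again with U0126, but which read 3585 on the 1 h FGF array against a quiescent mean of 1348. Hexokinase Hk2 was higher with U0126 (0.64 ± 0.11, adjusted p = 0.000434) and also with FGF at 12 h (0.59 ± 0.18, adjusted p = 0.0334).

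In the thioredoxin and glutaredoxin system, the redox proteins that Txnip acts on or neighbours, FGF at 12 h raised 3 of 17 and lowered 0 (median 0.22 beside -0.01). That is 17.6% called, or 29.4% with the block, close to the share of all genes. U0126 raised 1 and lowered 3 (23.5% called, median -0.0032 beside 0.01), also close to it. Glutaredoxin Glrx rose by 1.82 ± 0.16 with FGF (adjusted p = 2.89e-06) and fell by 1.71 ± 0.09 with U0126 (adjusted p = 7.73e-09). Glrx5, a mitochondrial glutaredoxin, rose by 0.58 ± 0.12 (adjusted p = 0.00283) and fell by 0.50 ± 0.07 (adjusted p = 8.18e-05), and mitochondrial Txn2 rose by 0.82 ± 0.20 with FGF (adjusted p = 0.00877). Srxn1, which repairs oxidised peroxiredoxins, rose with U0126 (0.76 ± 0.10, adjusted p = 4.43e-05), and the reductase Txnrd3 fell (-0.50 ± 0.13, adjusted p = 0.00982). Txn1, the thioredoxin bound by Txnip, differed by 0.29 ± 0.11 at 12 h of FGF (adjusted p = 0.0902, with the block 0.0461) and its reductase Txnrd1 by 0.41 ± 0.15 (adjusted p = 0.0669, with the block 0.0078). The U0126 averages of these 2 genes were -0.03 ± 0.07 and 0.02 ± 0.09, neither of them called.

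Of 12 tested glucose transporters and hexokinases, FGF at 12 h raised 1 (Hk2) and lowered 1, Slc2a10 (-0.71 ± 0.23, adjusted p = 0.0432). That is 16.7% called, under the 20.3% of all genes, with a median of -0.0049 beside -0.01. U0126 raised 2, Hk2 and Slc2a6 (0.91 ± 0.22, adjusted p = 0.00658), again 16.7%, under the 22.0% of all genes, with a median of 0.21 beside 0.01. Slc2a1, the transporter GLUT1 that Txnip restrains, differed by -0.01 ± 0.22 at 12 h of FGF (adjusted p = 0.988) and by 0.14 ± 0.13 with U0126 (adjusted p = 0.529). Of 15 tested NEDD4-class ligases and ESCRT partners, FGF at 12 h lowered 3 and raised 0, with a median of -0.20 beside -0.01. That is 20.0% called, close to the 20.3% of all genes, or 5 and 1 with the block (40% beside 30.0%). The 3 called without the block were the ligases Wwp2 (-0.79 ± 0.15, adjusted p = 0.00172) and Itch (-0.72 ± 0.16, adjusted p = 0.00445), and the ESCRT protein Stam (-0.48 ± 0.14, adjusted p = 0.0219). U0126 raised 3 and lowered 1 (26.7% called beside 22.0%, median 0.01 beside 0.01), or 3 and 2 with the block (33.3% beside 30.6%). Of those raised, Wwp2 led (1.11 ± 0.09, adjusted p = 3.69e-07). The ligases' adaptor Ndfip2 (0.31 ± 0.08, adjusted p = 0.00939) and Stam (0.35 ± 0.08, adjusted p = 0.00541) were the others raised, and the ligase Smurf2 fell by 0.56 ± 0.08 (adjusted p = 0.000154). Nedd4l, a ligase of the class, differed by 0.47 ± 0.22 at 12 h of FGF (adjusted p = 0.153, with the block 0.0265) and by -0.31 ± 0.13 with U0126 (adjusted p = 0.0975, with the block 0.0119).

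Among 9 other arrestin-fold genes, FGF at 12 h lowered 3 (33.3% called, median -0.20 beside -0.01) and U0126 raised 3 and lowered 1 (44.4% called, median -0.09 beside 0.01). Beta-arrestin Arrb1, which uncouples receptors from G proteins, fell with U0126 by 1.20 ± 0.22 (adjusted p = 0.000892). The retromer subunit Vps26a fell with FGF by 0.40 ± 0.13 (adjusted p = 0.0367) and rose with U0126 by 0.29 ± 0.07 (adjusted p = 0.00919), and Rgp1 did likewise, at -1.10 ± 0.22 (adjusted p = 0.00263) and 0.38 ± 0.13 (adjusted p = 0.0452). Vps26b fell with FGF by 0.49 ± 0.15 (adjusted p = 0.038), and Vps26c rose with U0126 by 0.34 ± 0.10 (adjusted p = 0.0265). AMPK is the energy-sensing kinase that phosphorylates Txnip. Of 7 tested genes for its subunits and its activator Stk11, 0 were called in limma at 12 h of FGF, with 3 at an unadjusted p under 0.05 (median 0.07 beside -0.01). With the block 3 were raised and 1 lowered, 57.1% of the 7. U0126 raised Prkab2 (0.46 ± 0.13, adjusted p = 0.0212) and lowered Prkab1 (-0.32 ± 0.09, adjusted p = 0.0214) and Prkag1 (-0.38 ± 0.09, adjusted p = 0.00559), 42.9% called (2 raised and 3 lowered with the block, 71.4%), with a median of -0.16 beside 0.01.

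The genes whose 11 group means ran most like those of Txnip, out of 12423 whose highest group mean exceeded the median signal, were Nrde2 (Pearson r = 0.95), Slc22a15 (0.95), Pdgfrb (0.94), Fbxw7 (0.94) and Lrrk1 (0.93). Pdgfrb, a receptor for PDGF and a fibroblast marker, had a mean signal of 6837 in quiescent cells, 2618 at 12 h of FGF and 2572 at 12 h with U0126. The 5 genes differed from quiescent cells by -0.43 to -1.37 at 12 h of FGF and by -0.51 to -1.40 at 12 h with U0126. They were picked for their likeness to Txnip, so these values are a description.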

How the data were processed

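Total RNA from 19 samples of NIH3T3 cells was hybridised to Affymetrix mouse arrays, 1 array per sample. The deposited values are MAS5 signal intensities on a linear scale, per the submitters' processing notes. No version of MAS5 is stated in the sources used here, and no presence calls were used. The mean of each array without its highest and lowest 2% of values was 500.0 in the deposited table. The number of arrays limits the precision. MAS5 subtracts mismatch signal, so values near or under 45.2, the 40th percentile of all values, say little about a gene's level.

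An offset of 13.6, equal to the 20th percentile over the whole table, was added before taking log2, so changes of dim genes are understated. Quiescent arrays 1a and 1b share experiment 1 and were averaged, leaving 18 columns in 11 groups. A probe set entered if 2 or more arrays placed it above their own 40th percentile, the low-signal level, and where several remained for a gene the one with the highest mean stood for it, giving 14996 genes. Probe sets with 1 gene numbered 34945, with several 932 and with none 9160. Tests used limma 3.58.1 (R 4.3.3), moderated along an intensity trend, two-sided, with Benjamini-Hochberg adjustment over all genes. The fit had 7 residual and 7.47 prior degrees of freedom, and intervals are at 95%. A group of 1 array takes its spread from the replicated groups. The fit with the experiment number as a block had 6 residual degrees of freedom. The experiment numbers were taken to pair the arrays because same-numbered arrays deviated together in all 21 pairs of groups (r from 0.127 to 0.305). Quiescent arrays 1a and 1b correlated at 0.97 and differed by a median of 0.28 on the log2 scale. On simulated data for FGF at 12 h minus quiescent over 14996 genes, 37 of 100 genes changed by 1 log2 unit and 66 of 100 changed by 2 were recovered, with 4 false calls. Only those genes were changed, far fewer than the 3049 called in the data. The simulated noise was independent between arrays, with no experiment effect. These rates therefore need not hold for the real comparison.

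The genes and lists were chosen with earlier results of these data known. Named genes were all members, Mlx, Mlxipl, Slc2a1, Txn1, Txnrd1, Hk2, Nedd4l, Itch and Dusp6, up to 4 called genes per list with the smallest adjusted p in each of 2 comparisons, and the 5 genes most like Txnip. Alternatives were other offsets, scalings, filters, probe set choices and variance settings, the block, only the compared groups, and leaving out each array. Promoter sequences are from RefSeq (GRCm38.p6), of which 32841 entries were searched over 250 bases, and all 6 genes matched by symbol. Protein sequences were not used here.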

Additional observations from a re-analysis of the deposited data

Results flagged for a closer look

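Arrdc3 stood out because the estimate of its U0126 effect differed in sign between time points, although no effect above 0 was called. The test over 4, 7 and 12 h gave an adjusted p of 0.17, and 0.025 with the experiment number as a block. In both experiments the effect was below 0 at 4 h and 7 h and above 0 at 12 h, the 12 h value exceeding the 4 h value by 1.36 and the 7 h value by 0.97 on the log2 scale. In experiments 1 and 2 it was -0.84 and -0.14 at 7 h, and 0.06 and 0.90 at 12 h. The value above 0 at 12 h thus came mostly from experiment 2. The U0126 effect on Arrdc2 in experiments 1 and 2 was -0.45 and -0.05 at 7 h and 0.09 and 0.46 at 12 h, a shift of 0.53. Its test over time gave an adjusted p of 0.974, and 0.738 with the block. These signs were found by searching all members and pairs of times for opposite signs, and values close to 0 can take either sign. Groups held at most 3 arrays, too few for a check on single outlying arrays.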

How the results depend on the processing

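Of 492 values from 41 differences of the members under 12 other settings, 459 kept their direction and side of the threshold, 11 lost a call, 21 gained one and 1 changed sign. Most gains came with the experiment number as a block and are given with each gene. Without a variance trend, the calls for Txnip at 4 h of FGF (-2.14, adjusted p = 0.0696), its average U0126 effect (-0.85, adjusted p = 0.123), Arrdc3 with U0126 at 4 h (-0.88, adjusted p = 0.141) and Arrdc3 with U0126 from 1 h (-1.25, adjusted p = 0.129) were lost. With no filter the average U0126 effect on Txnip (-0.85, adjusted p = 0.0543) and Arrdc3 at 4 h (-0.88, adjusted p = 0.0617) were lost. Quantile normalization ended the calls for Arrdc3 at 4 h (-0.85, adjusted p = 0.0551) and with U0126 from 1 h (-1.15, adjusted p = 0.0527). Arrdc3 at 4 h stayed at -0.88 and missed the threshold with 3 separate quiescent arrays (adjusted p = 0.0522), the probe set of highest variance (0.07) or every probe set (0.0609). The Arrdc1 average was -0.46 on its probe set of highest variance. The causes were not tested.

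Leaving out 1 array at a time gave -2.56 to -1.74 for Txnip at 4 h of FGF, -1.13 to -0.58 for its average U0126 effect, -0.91 to -0.85 for Arrdc3 with U0126 at 4 h and -1.28 to -1.22 for Arrdc3 with U0126 from 1 h. Values that crossed 0, none of them called, were the Arrdc1 average (-0.074 to 0.12), Txnip with U0126 at 12 h minus 4 h (-0.90 to 0.74) and Txnip with U0126 from 7 h minus FGF alone (-0.77 to 0.036). Counts of called genes over all settings and left-out arrays ran from 42 to 236 around 72 for FGF against quiescence at 1 h, 548 to 2655 around 1335 at 4 h, 872 to 3241 around 1896 at 7 h and 1734 to 4678 around 3049 at 12 h. For U0126 they ran from 21 to 158 around 27 at 1 h, 437 to 1944 around 889 at 4 h, 497 to 1880 around 911 at 7 h, 985 to 3094 around 1806 at 12 h, 2350 to 5408 around 3293 on average and 44 to 575 around 154 for the test over time. Between 12 h and 4 h they ran from 427 to 2109 around 982 with FGF and 7 to 738 around 133 with U0126. For U0126 from 1 h they ran from 294 to 1123 around 539 against FGF and 0 to 4 around 0 against earlier U0126, and for U0126 from 7 h from 369 to 1694 around 758 and 24 to 337 around 101.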
